A study of Mus musculus with 13 samples.

Results

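miR-221 and miR-222 are a pair of related miRNAs made from neighboring hairpins on the X chromosome. Their members were found by name in small RNA-seq counts of thymic invariant natural killer T (iNKT) cells, whatever their values: the hairpins mmu-mir-221 and mmu-mir-222 are 2 of 1127 hairpin sequences counted, and their arms miR-221-3p, miR-221-5p, miR-222-3p and miR-222-5p are 4 of 1297 mature sequences counted. Of these, 2 of the 350 hairpins and 2 of the 401 mature miRNAs that held enough reads for the test across all miRNAs belong to the pair, and both 5p arms fell below that filter. The libraries came from 6 wild type (WT) mice and 7 *Tet2/3* double knockout (DKO) mice, with 1 library per mouse. WT animals were C57BL/6 mice. The DKO genotype is Tet2-/-Tet3flx/flx with the CD4 cre transgene, so that *Tet2* is absent from the whole animal while *Tet3* is deleted in cells that have expressed the CD4 promoter, T cells and their CD4+CD8+ precursors among them. The mice were 21 to 25 days old and the groups were matched for age and sex. Each genotype included males and females. The sample titles do not give the sex of a mouse, and sex was not a term in any fit. Thymocytes were depleted of CD24+ cells and sorted as live, TCRβ+, α-galactosylceramide-loaded CD1d tetramer+ cells. The cre transgene and both *Tet* alleles differ together between the groups, so their parts cannot be told apart.

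A miRNA gene is transcribed as a long RNA from which Drosha cuts a hairpin, and Dicer then releases a duplex with a 5p and a 3p arm, of which usually one is kept in Argonaute. The retained strand finds its targets mainly through the seed, the bases from position 2 to 8 of the miRNA, which pair with complementary letters in 3′ untranslated regions (UTRs). miR-221 and miR-222 are known for repressing *Kit*, the stem cell factor receptor, and *Cdkn1b*, which encodes the cyclin-dependent kinase inhibitor p27, and they are induced when T cells are activated. PLZF, encoded by *Zbtb16*, is the transcription factor that gives iNKT cells their innate-like program, and in melanoma cells it was described to repress the miR-221 and miR-222 genes. TET proteins oxidize 5-methylcytosine, the first step of active DNA demethylation.

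Both hairpins lie on the minus strand, in the order miR-222 then miR-221 in the direction of transcription, with 504 bases between them (GRCm38.p6, RefSeq). The Mir221 hairpin spans chrX:19146294-19146388 and the Mir222 hairpin chrX:19146893-19146971. No annotated gene of GENCODE M21 other than the hairpins themselves overlaps them, and the nearest, the processed transcript Gm14636, lies 10010 bp away on the same strand at chrX:19156981-19167241. The 2 hairpins are shown because the reads counted in the hairpin table fall within them, with capitals for the mature arms that the RefSeq table lists.
Mir221: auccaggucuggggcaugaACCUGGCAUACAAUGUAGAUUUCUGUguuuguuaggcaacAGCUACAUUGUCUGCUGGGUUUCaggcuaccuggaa
Mir222: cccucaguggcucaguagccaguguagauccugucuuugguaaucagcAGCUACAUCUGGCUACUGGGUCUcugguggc

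The mature arms are shown with the seed in capitals, since the seed is what the pair shares.
miR-221-3p: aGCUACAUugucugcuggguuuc
miR-222-3p: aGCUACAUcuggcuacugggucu
miR-221-5p: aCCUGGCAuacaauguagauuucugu
The 3p arms have the same first 8 bases and are identical at 11 of 23 positions from the 5′ end, so a read of full length can tell them apart. The 5p arm of miR-221 has another seed. Of 1679 mature names in the RefSeq table, 3 carry the seed GCUACAU, the third being miR-1928 (chr1:74206562-74206578, minus strand), whose mature form is not analysed here. The hairpin mir-1928 was counted at a mean of 1311 ± 442 CPM over the WT libraries (SD, n = 6), against 969 ± 905 CPM for DKO (SD, n = 7), levels that do not say how much of the mature form was present. Arm miR-222-5p is named only.

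The letters complementary to the shared seed, ATGTAGC in the DNA sense, were searched on the transcribed strand of the longest annotated 3′ UTR of each gene (GENCODE M21). The search gives the places at which the known targets could pair with either 3p arm. At least 1 match was found in 1978 of 20945 genes (9.4%), whose UTRs have a median length of 956 bases when all 20945 are taken. The UTR of *Kit* (2177 bases) holds 2 matches, the UTR of *Cdkn1b* (3439 bases) holds 1 and that of *Zbtb16* (2845 bases) holds 0. All 3 matches are followed by an A, the form called an 8mer, and they are printed on the plus strand with the match in capitals.
Kit, chr5:75654978-75654999: atgatgggagatatATGTAGCa
Kit, chr5:75656509-75656530: ttgtaaatattgaaATGTAGCa
Cdkn1b, chr6:134924417-134924438: tctaaaagcattggATGTAGCa
A match describes letters and not binding, and the mRNAs of *Kit*, *Cdkn1b* and *Zbtb16* were not measured in these libraries.

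Total counts per library were 469117 to 1110226 for hairpins in WT and 728653 to 1910526 in DKO, and 1110852 to 2582057 for mature sequences in WT and 1837631 to 4361963 in DKO. WT 1 and DKO 7 were the shallowest libraries of their genotypes, and DKO 3 was the next shallowest DKO library. Levels below are CPM, the counts of a miRNA per 1e+06 counts of its library, here scaled by TMM, which sets each library's scale on the assumption that most miRNAs do not differ or that differences in the 2 directions balance. In edgeR's quasi-likelihood test with Benjamini-Hochberg adjustment, 59.7% of tested hairpins passed an adjusted p of 0.05, with 27.1% lower and 32.6% higher in DKO, and the figures for mature miRNAs were 55.6%, 27.4% and 28.2%. The CPM ranges of the 2 genotypes did not overlap for 32.0% of hairpins and 27.2% of mature miRNAs. A call in either direction is therefore common in these data.

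Marker miRNAs of other cell types also moved with genotype. The 4 T cell markers (among them miR-142a-3p and miR-181a-5p) summed to 172241 to 229582 CPM in WT and 148604 to 207029 CPM in DKO, and 2 of the 4 were lower in DKO. Some of these, such as miR-142a-3p, are also abundant in other blood cells. Red cell markers summed to 221.2 to 440 CPM in WT and 28.1 to 134 CPM in DKO, with all 3 that were tested lower. That list holds miR-486a-5p and miR-486b-5p, which may share reads, since their hairpins had nearly equal WT means (662 and 660 CPM). Mesenchymal markers summed to 67.6 to 120 CPM in WT and 12.01 to 22.8 CPM in DKO, with all 4 that were tested lower. Levels in DKO lay below those in WT without overlap for both of these lists. Epithelial markers summed to 993 to 1487 CPM in WT and 591 to 776 CPM in DKO, also without overlap (3 of 5 tested lower). The hepatocyte miRNA miR-122-5p ranged over 46.9 to 883 CPM in WT and 3.16 to 49.3 CPM in DKO (lower). The 2 myeloid markers summed to 2.30 to 92.5 CPM in WT and 0.632 to 6.57 CPM in DKO (1 of 1 tested lower), while the 2 endothelial markers summed to 127 to 237 CPM and 196 to 335 CPM (1 of 2 higher). No listed marker was at 0 in all libraries. Their part in the values of miR-221 and miR-222 was not tested, and in bulk libraries fewer cells of a type and less RNA per cell cannot be told apart.

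miR-221-3p was the most abundant member and was lower in DKO iNKT cells, whereas the decrease of miR-222-3p did not pass the test. In the 6 WT libraries miR-221-3p stood at 129 CPM at the lowest, 144 at the median and 180 at the highest, with a mean of 149 ± 18.01 CPM (SD, n = 6). Its DKO levels were 43.5, 115 and 140 CPM, with a mean of 101 ± 35.2 CPM (SD, n = 7). Thus 6 of 7 DKO mice lay below every WT mouse and only DKO 2 fell inside the WT range, while DKO 4 (128 CPM) lay just under it. With library size only, both DKO 2 (170 CPM) and DKO 4 (139 CPM) lay inside the WT range, whose lowest was WT 4 (121 CPM). Of the WT libraries, only WT 3 (175 CPM) then stood above them. The lowest levels belonged to DKO 7 (43.5 CPM) and DKO 3 (62.6 CPM), the shallowest libraries of that genotype. The log2 fold change of DKO over WT was −0.57 (SE 0.214, 95% interval −1.01 to −0.12), and edgeR's quasi-likelihood test gave an adjusted p = 0.0284.

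That call depended on the scaling and on these libraries. Leaving out any 1 library kept it, with fold changes of −0.70 to −0.52 and adjusted p from 0.0109 to 0.0444 in edgeR. Without both DKO 3 and DKO 7 the fold change was −0.36 and edgeR's adjusted p = 0.0651. With library size as the only scaling it was −0.33 with an edgeR adjusted p = 0.208, a setting in which the median fold change of all tested mature miRNAs moved up by 0.25. Measured from the median of all tested mature miRNAs, the fold change was −0.56 with TMM and −0.57 with library size only. A change of scaling moves nearly all fold changes alike, so that likeness follows from the measure and does not test the decrease. Ranks within a library do not depend on scaling: miR-221-3p took places 129 to 147 among mature sequences in WT and 146 to 206 in DKO, with DKO 2 again the exception.

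miR-222-3p has the same seed and was counted less often. WT levels were 16.9 CPM at the lowest, 26.97 at the median and 30.1 at the highest, and the mean was 25.5 ± 5.10 CPM (SD, n = 6). DKO levels were 9.87, 19.6 and 33.5 CPM, with a mean of 20.0 ± 8.84 CPM (SD, n = 7). The genotypes overlapped, with 2 DKO libraries (DKO 3 and DKO 7) below the WT range, 4 inside it and 1 (DKO 5) above it. The log2 fold change was −0.35 (SE 0.289, 95% interval −0.94 to 0.25; edgeR quasi-likelihood, adjusted p = 0.318), an interval that includes both no change and the value of miR-221-3p. The value was −0.13 without both DKO 3 and DKO 7, −0.57 without DKO 5, −0.11 with library size only and −0.52 with upper quartile scaling, and none of these passed the edgeR test. Its place among mature sequences was 230 to 264 in WT and 226 to 317 in DKO.

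**Figure D1:**
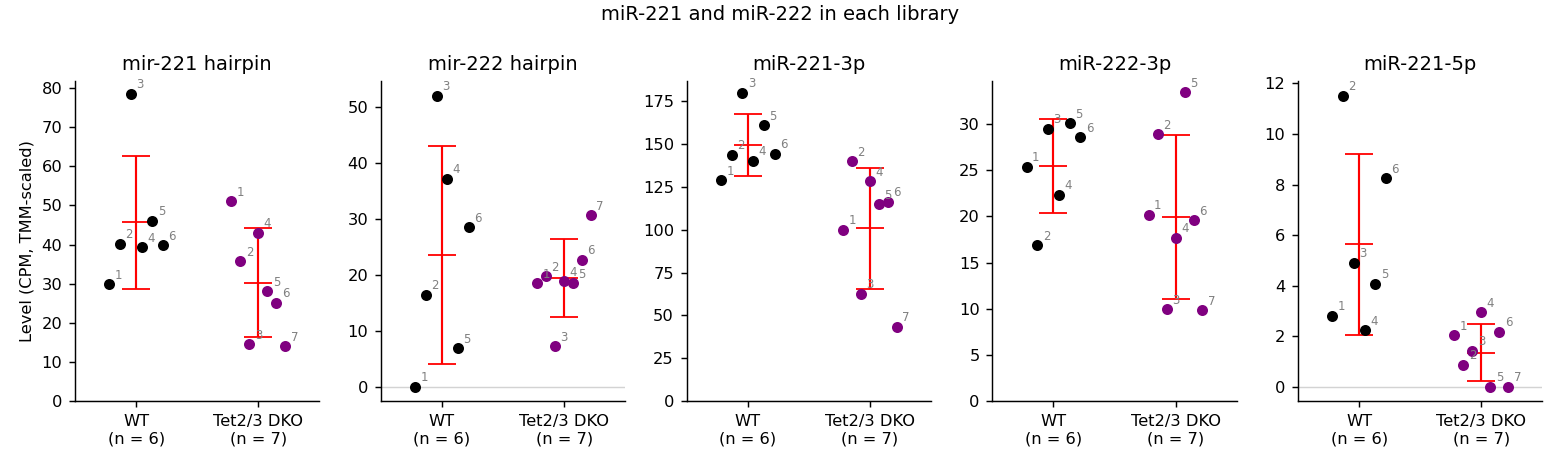
Levels of both hairpins and of 3 mature arms in every library (y axis, TMM-scaled CPM, a separate scale in each panel) for WT (black, n = 6) and *Tet2/3* DKO (purple, n = 7). Points are mice with their replicate numbers and red bars are the mean ± SD. For miR-221-3p, 6 of 7 DKO mice lie below every WT mouse, while the hairpin mir-222 and miR-222-3p overlap between genotypes.

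The 3p arms were more spread among DKO mice than among WT mice. The coefficient of variation of miR-221-3p was 12.05% among WT libraries and 35.0% among DKO libraries, and counting alone would give 6.43% and 5.31%. For miR-222-3p it was 20.0% in WT and 44.3% in DKO, against 15.6% and 11.9% from counting alone. Without DKO 3 and DKO 7 the coefficient of variation among the other 5 DKO libraries was 12.5% for miR-221-3p and 28.5% for miR-222-3p, so the width for miR-221-3p came from those libraries.

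The hairpin counts hold fewer reads. Hairpin mir-221 was counted 13 to 77 times in WT libraries and 12 to 91 times in DKO libraries. Its level in WT was 29.9 CPM at the lowest, 40.1 at the median and 78.5 at the highest (mean 45.7 ± 16.9, SD, n = 6). In DKO it was 14.2, 28.0 and 51.0 CPM (mean 30.2 ± 13.9, SD, n = 7). The groups overlapped, with 4 DKO mice below every WT mouse and 3 inside the WT range. The log2 fold change was −0.59 (SE 0.318, 95% interval −1.26 to 0.08) and did not pass edgeR's quasi-likelihood test (adjusted p = 0.116). The value was −0.32 without WT 3 and −0.27 without both DKO 3 and DKO 7. Upper quartile scaling, which moved the median fold change of all tested hairpins down by 0.24, gave −0.81 and an edgeR adjusted p = 0.0346.

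Hairpin mir-222 varied widely in WT. It was counted 0 times in WT 1, the shallowest library, where 3 counts of 469117 would be 6.39 CPM of the library size, and 6 to 51 times in the other WT libraries. Its WT levels were 0 CPM at the lowest, 22.5 at the median and 52.0 at the highest (mean 23.5 ± 19.5, SD, n = 6). In DKO they were 7.27, 18.9 and 30.7 CPM (mean 19.5 ± 6.92, SD, n = 7). All 7 DKO libraries lay inside the WT range. The log2 fold change of −0.34 (SE 0.501, 95% interval −1.39 to 0.71; edgeR quasi-likelihood, adjusted p = 0.580) changed sign without WT 3 (0.11, edgeR adjusted p = 0.867), so no direction can be given at this depth. How the hairpin and mature counts relate is not stated. In WT 1 hairpin mir-222 was counted 0 times and miR-222-3p 27 times, so those arm reads were not counted for the hairpin. Whether reads are shared elsewhere was not tested, and the hairpin values may not be independent of those of the arms.

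**Figure D2:**
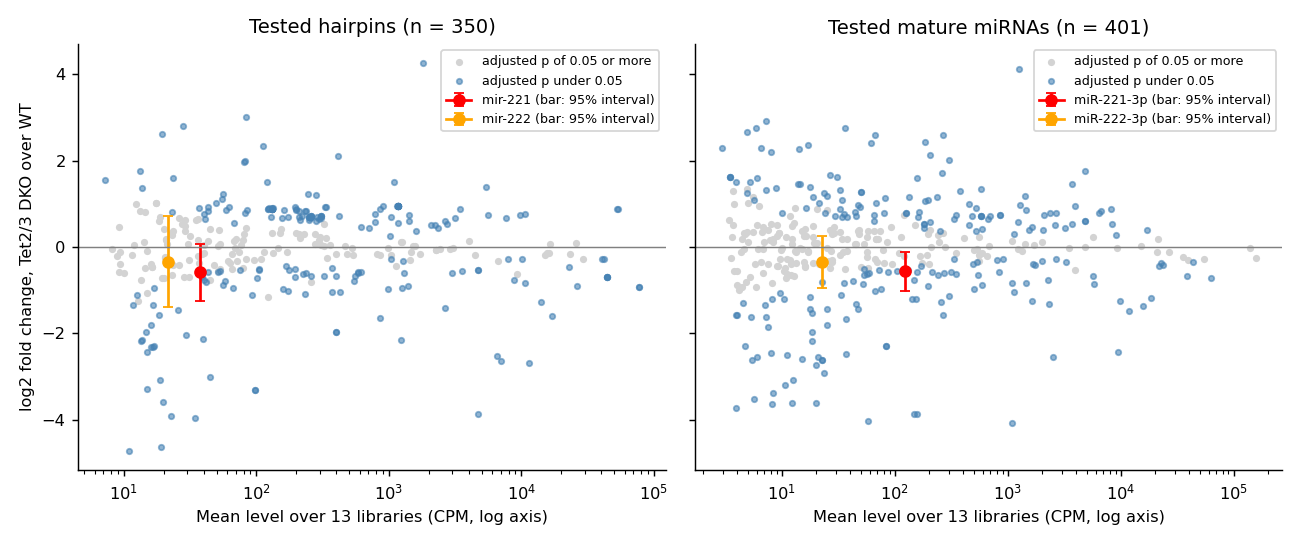
Log2 fold change of DKO over WT (y axis) against the mean level over all 13 libraries (x axis, CPM, log axis) for 350 tested hairpins (left) and 401 tested mature miRNAs (right), with calls at an adjusted p under 0.05 in blue. The members are drawn with 95% intervals, and only the interval of miR-221-3p, −1.01 to −0.12, does not reach 0.

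The 5p arms are the strands that usually are not retained, and their counts were low. miR-221-5p was counted 56 times over all WT libraries and 39 times over all DKO libraries, although the DKO libraries were deeper. Its WT levels were 2.24 CPM at the lowest, 4.50 at the median and 11.5 at the highest (mean 5.64 ± 3.58, SD, n = 6). Its DKO levels were 0, 1.42 and 2.95 CPM (mean 1.35 ± 1.13, SD, n = 7). With TMM scaling 6 of 7 DKO mice lay below every WT mouse and only DKO 4 fell inside the WT range. With library size only, DKO 1 and DKO 6 (2.08 CPM each, from 8 and 9 counts) lay above WT 4 (1.94 CPM, from 5 counts). DKO 5 and DKO 7 held no read of this arm. In DKO 5, the deeper of those libraries, 0 of 3881571 counts allows a level of up to 0.773 CPM of the library size.

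Because it fell below the filter, miR-221-5p was compared on its own. The mean log2(CPM + 1) was lower in DKO by a difference of −1.50, with p = 0.00408 in a two-sided exact permutation test over mice. That scale understates the change of a low miRNA, and with no filter on low counts edgeR gave a log2 fold change of −1.87 (adjusted p = 0.0301). Every fit that left out 1 library gave a difference between −1.68 and −1.29 that passed the exact permutation test, and without both DKO 3 and DKO 7 it was −1.33 (exact permutation p = 0.0173). miR-222-5p was counted 3 times in WT 3, 2 times in DKO 2 and 0 times in the other 11 libraries, so no comparison can be made of it.

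Since both 3p arms carry the same seed, their levels were also added. The sum was 154 CPM at the lowest, 168 at the median and 209 at the highest in WT (mean 175 ± 21.1, SD, n = 6). In DKO it was 53.4, 136 and 169 CPM (mean 121 ± 42.4, SD, n = 7). The difference of DKO from WT was taken in mean log2(CPM + 1), a measure unlike the edgeR fold changes of the single arms. That difference was −0.62 with p = 0.0134 in the exact permutation test, and −0.38 (exact permutation p = 0.170) when library size was the only scaling. Without WT 3 it was −0.57 (exact permutation p = 0.0543), and without both DKO 3 and DKO 7 it was −0.28 (exact permutation p = 0.0216). miR-222-3p made up 14.5% ± 2.29 of the reads of the pair in WT (SD, n = 6) and 16.5% ± 3.46 in DKO (SD, n = 7), with ranges of 10.5% to 16.5% and 12.1% to 22.5%. So miR-221-3p supplied most of the reads of the pair in every library.

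Ratios within a library, which need no scaling between libraries, compared the members with each other. Counts of different small RNAs also depend on how well each ligates to the adapters, so a ratio is one of reads and not of molecules. The geometric mean of the ratio of miR-221-3p to miR-222-3p was 5.89 in WT and 5.12 in DKO, and the log2 difference of −0.20 did not pass the exact permutation test (p = 0.299, adjusted p = 0.399 over 4 ratios). The ratio of hairpin mir-221 to hairpin mir-222 was 3.10 in WT and 1.499 in DKO (log2 difference −1.05, exact permutation p = 0.209, adjusted p = 0.399). WT 1, with its 0 count of mir-222, set much of that gap, since summed counts gave ratios of 1.79 and 1.70, and the log2 difference without WT 1 was −0.42.

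The arms of miR-221 were compared in the same way. miR-221-5p amounted to 3.46% of the miR-221-3p counts summed over WT libraries and 1.37% summed over DKO libraries. The mean log2 ratio per library differed by −1.78, with an exact permutation p = 0.0350 that became 0.140 after adjustment over the 4 ratios. Only 3 DKO libraries had a ratio below every WT library, among them both that held no read of miR-221-5p. Counts in the hairpin table for mir-221 amounted to 13.4% of the miR-221-3p counts in WT and 13.3% in DKO (log2 difference 0.02, exact permutation p = 0.927, adjusted p = 0.927). The hairpin and its 3p arm therefore kept nearly one ratio in the summed counts of both genotypes. For mir-222 the corresponding shares were 44.0% of the miR-222-3p counts in WT and 39.9% in DKO, given with no test.

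**Figure D3:**
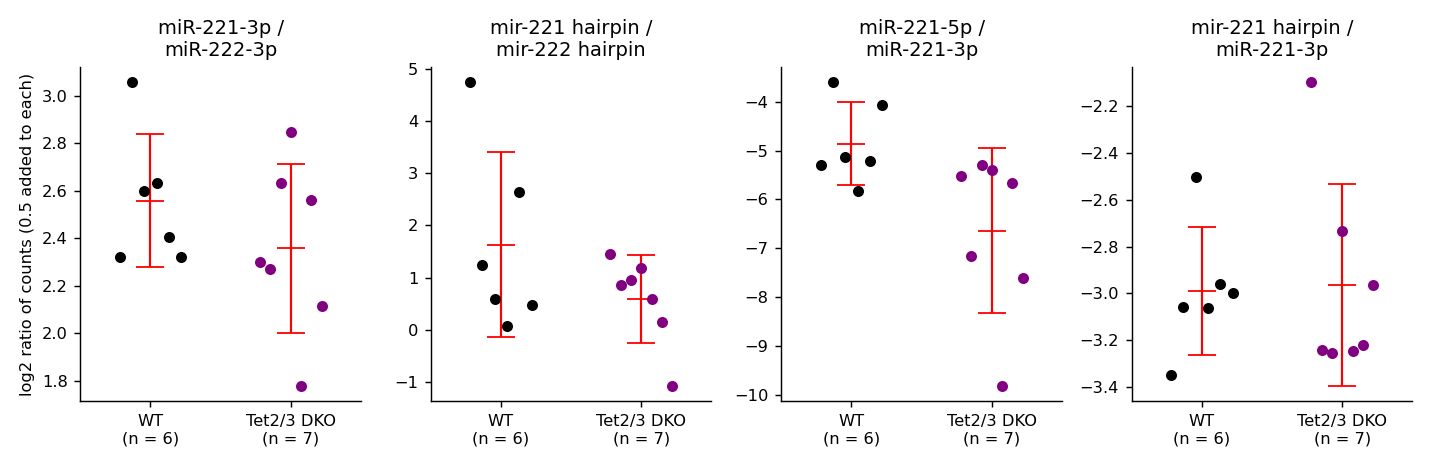
Log2 ratios of counts between members in each library, with 0.5 added to each count (y axis, a separate scale in each panel), for WT (black, n = 6) and *Tet2/3* DKO (purple, n = 7). Red bars are the mean ± SD. The ratio of miR-221-5p to miR-221-3p has the largest difference of the 4 (−1.78), and DKO and WT libraries overlap in every panel.

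The 3p arms rose and fell together among DKO mice, but largely on the strength of a pair of libraries. Over the 7 DKO libraries log2 CPM of miR-221-3p and miR-222-3p had Pearson's r = 0.850 (exact permutation p = 0.0194, adjusted p = 0.0389 over 2 genotypes) and Spearman's rho = 0.571 (exact permutation p = 0.200, adjusted p = 0.200). Without DKO 3 and DKO 7, the libraries farthest from the median, r was 0.221, so with TMM the relation rests on them. In the 6 WT libraries r was 0.461 (exact permutation p = 0.374, adjusted p = 0.374) and rho was 0.714 (exact permutation p = 0.136, adjusted p = 0.200), and without WT 1 and WT 3 r was 0.585. With library size as the only scaling, r was 0.837 in DKO and 0.578 in WT. In that scaling rho in DKO was 0.786 (exact permutation p = 0.0480, adjusted p = 0.0960). There r was 0.501 without DKO 3 and DKO 7, and 0.346 in WT without WT 3 and WT 4.

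**Figure D4:**
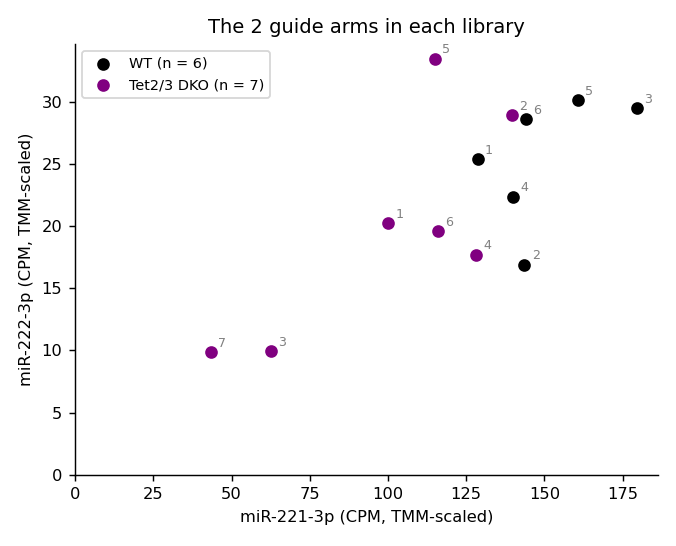
Level of miR-222-3p (y axis, TMM-scaled CPM) against that of miR-221-3p (x axis, TMM-scaled CPM) in each WT (black, n = 6) and *Tet2/3* DKO (purple, n = 7) library, with replicate numbers. DKO 3 and DKO 7 lie at the lower left with 62.6 and 43.5 CPM of miR-221-3p, apart from all other libraries.

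As a description of which miRNAs varied most like miR-221-3p from mouse to mouse, log2 CPM was centered on the mean of each genotype and correlated over the 13 libraries. The comparison took miRNAs with a mean of at least 100 counts, and others below that mean were left out. Its own partner miR-222-3p was added despite a mean of 64 counts, and it came first of 223 miRNAs compared (r = 0.801). It was followed by miR-532-3p (r = 0.758), miR-1839-5p (r = 0.697), miR-669o-5p (r = 0.695), miR-34a-5p (r = 0.676) and miR-467e-5p (r = 0.670). These points share library, depth and scaling. The miRNAs next in likeness did not all differ by genotype in the same direction: the log2 fold change was −0.49 for miR-532-3p (edgeR quasi-likelihood, adjusted p = 0.0746) and 2.43 for miR-34a-5p (adjusted p = 2.43e-06), a target gene of p53.

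The lists of related miRNAs put the pair beside others of like function or location. Of 10 miRNAs induced on T cell activation, as miR-221 and miR-222 are, 6 were higher in DKO, 1 was lower and 3 did not pass the edgeR test, and their median log2 fold change was 0.62 beside −0.01 for all tested mature miRNAs, of which 28.2% were higher and 27.4% lower. miR-17-5p and miR-20a-5p, of the miR-17-92 cluster that promotes lymphocyte proliferation, rose by 0.89 (SE 0.117, edgeR adjusted p = 1.94e-06) and 0.84 (SE 0.124, adjusted p = 9.17e-06). Several other miRNAs of the list belong to that cluster too, and some others share a locus with each other. The 10 are therefore not separate units, and their count cannot be read as that many independent changes. miR-21a-5p, a miRNA of activated T cells, rose by 0.27 (SE 0.1002, edgeR adjusted p = 0.0239). The member that fell was miR-92a-3p. With library size only, 7 were higher and none was called lower, when 142 of all 401 mature miRNAs were higher and 77 lower. With upper quartile scaling 5 were higher and 1 was lower, when 89 of all were higher and 132 lower.

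Of 4 other miRNAs known to target *Cdkn1b*, 2 were lower in DKO, 0 were higher and 2 did not pass the edgeR test, with a median of −0.37 beside −0.01 for all tested. Among all tested mature miRNAs 27.4% were lower, and a list of 4 is too short to be read against that share. miR-24-3p fell by 0.44 on the log2 scale (SE 0.0956, edgeR adjusted p = 0.000538) and miR-148a-3p fell by 0.96 (SE 0.333, adjusted p = 0.0249). miR-181a-5p, the most counted miRNA of the list and one that sets T cell receptor signaling strength, stood at −0.03 on the same scale (SE 0.123, edgeR adjusted p = 0.832). None of the 4 was called with library size only, and 1 was called lower without the shallowest library of each genotype.

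Of 6 miRNAs needed for iNKT or T cell development, 2 were lower and 4 did not pass the edgeR test, with a median of −0.22 beside −0.01 for all tested. A share of 2 in 6 is near the 27.4% of all tested that were lower. With library size only the median became 0.02 beside 0.24 for all tested, and 1 was lower and 2 were higher when 77 of all were lower and 142 higher. Without the shallowest library of each genotype 3 were lower and 1 was higher, when 104 of all were lower and 112 higher. miR-142a-3p, abundant in all hematopoietic cells, fell by 0.41 on the log2 scale (SE 0.106, edgeR adjusted p = 0.00241). miR-150-5p, the other one called lower with TMM, fell by 1.18 (SE 0.183, edgeR adjusted p = 3.58e-05). The third most counted after miR-181a-5p, miR-181b-5p, stood at 0.19 (SE 0.127, edgeR adjusted p = 0.210).

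The other hairpins of the X chromosome were listed through RefSeq synonyms, which matched 1090 of the 1127 hairpins, so the list may be incomplete. It holds 71 hairpins, of which 31 were tested, and 7 were lower, 10 were higher and 14 did not pass the edgeR test, beside 27.1% lower and 32.6% higher among all tested hairpins. Their median log2 fold change was 0.04 beside 0.02 for all tested. These counts followed the scaling, with 3 lower and 17 higher for library size only and 12 lower and 8 higher for upper quartile. Some hairpins of the list share a locus, so they are not separate units. The 3 most counted, named next, all stood below 0, although with TMM 10 of the list were higher and 7 lower. The most counted, mir-652, stood at −0.16 (SE 0.0985, edgeR adjusted p = 0.174). let-7f-2 stood at −0.28 (SE 0.112, edgeR adjusted p = 0.0370) and mir-92a-2 at −0.84 (SE 0.146, adjusted p = 0.000102), and both have a near-copy on another chromosome with which they may share reads.

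**Figure D5:**
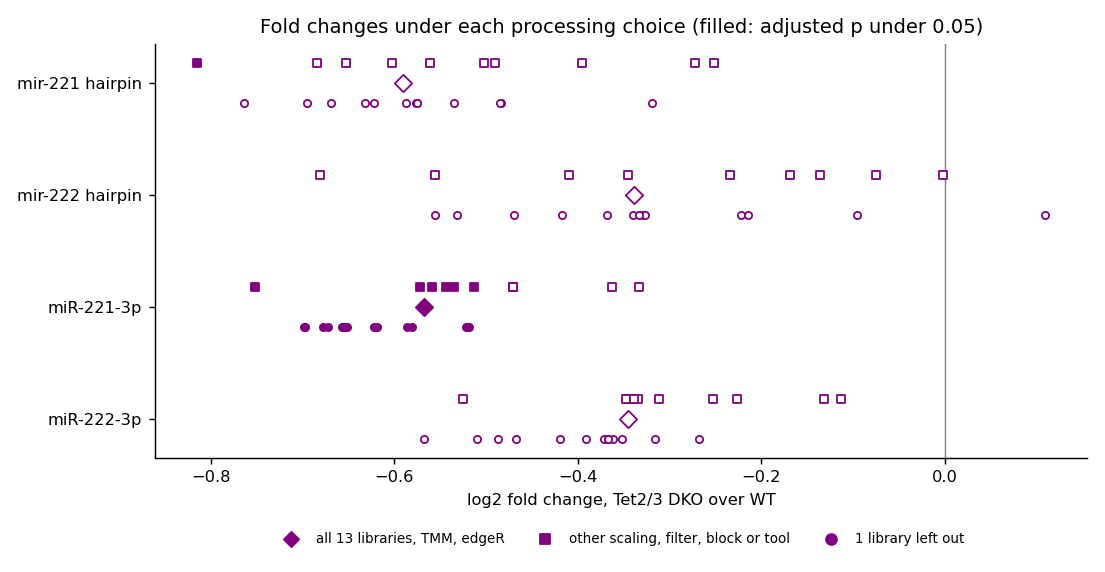
Log2 fold change of DKO over WT (x axis) for the 4 tested members with all 13 libraries (diamond), with another scaling, filter, tool, block or choice of libraries (squares) and with 1 library left out (circles). Filled symbols passed an adjusted p of 0.05. miR-221-3p stays below 0 in every fit drawn, and mir-222 crosses 0 in 1 fit (0.11, without WT 3).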

How the data were processed

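Small RNA was sequenced from sorted thymic iNKT cells of 6 WT and 7 *Tet2/3* DKO mice. The authors deposited tables of counts for hairpins and for mature miRNAs, raw and with 1 column per mouse, that they made with nf-core/smrnaseq at default settings. The labels name the mm10 build. The aligner, the miRNA database release and the counting of reads that match several sequences are not given in the sources used here. Reads carried no molecular identifiers that were counted, so intervals and floors cover counting error only.

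A filter for low counts (filterByExpr, minimum count 10 and minimum total 15) and TMM scaling came first, and genotypes were compared in edgeR 4.0.16 by the robust quasi-likelihood test with genotype only, using all 13 mice. Adjustment of p was that of Benjamini and Hochberg, over each whole table. SE was the fold change divided by the square root of F. The arm miR-221-5p failed the filter, so an exact permutation test of log2(CPM + 1) over the 1716 ways to divide the mice replaced edgeR for it. Sums of CPM used the same test, and ratios used it on counts with 0.5 added. R 4.3.3, limma 3.58.1, DESeq2 1.42.0 and Python 3.11.15 were used. The fit was also run on simulated counts whose changes went up or down with equal odds, so that run cannot test the choice of scaling. Libraries of 1 genotype differed by more than sampling noise (chi-square per degree of freedom of at least 16.2), so each counts as 1 replicate.

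The text names the members, miRNAs with the same seed, the 5 miRNAs with a mean of at least 100 counts most like miR-221-3p (beside miR-222-3p, whose mean was 64.0), and up to 3 most counted members of each list. miR-92a-3p, miR-150-5p and the list counts outside that rule were named after their values were seen. The members and lists were chosen with earlier results of these data known. Alternatives were other scalings, filters, tools, pseudocounts, a block on replicate number and left-out libraries. Leaving out the shallowest libraries was added after the data were seen. Sequences are from RefSeq (GRCm38.p6) and 3′ UTRs from GENCODE M21.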

Additional observations from a re-analysis of the deposited data

Results flagged for a closer look

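Within each genotype, the lowest and highest library of each level and ratio were compared with their neighbors by Dixon's test in 20 groups of libraries, and chance marks about 1 in 20. It marked 1 value: hairpin mir-222 in DKO 3, with a log2(CPM + 1) of 3.05 where the nearest DKO library stood at 4.29. That value rests on 9 counts.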

How the results depend on the processing

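Of 193 alternative values with a test, 181 kept their direction and their side of the threshold. The other 4, ratios of summed counts, have no test and moved by less than the SD between libraries, with 1 change of sign. The log2 fold change of miR-221-3p was below 0 in all 10 alternatives that did not leave out 1 library (−0.75 to −0.33), but it lost its call with library size only (−0.33), with no filter on low counts (−0.47, edgeR adjusted p = 0.0575) and without the 2 shallowest DKO libraries (−0.36). The cause was not tested. Hairpin mir-221 gained a call with upper quartile scaling (−0.81). The sum of the 3p arms lost its call with library size only (−0.38) and without WT 3 (−0.57). Hairpin mir-222 reversed without WT 3 (0.11), and the ratio of hairpin mir-221 to miR-221-3p reversed without WT 1 (−0.05), DKO 1 (−0.12) or DKO 4 (−0.02), and in summed counts (−0.01).

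Leaving out 1 library at a time gave −0.76 to −0.32 for hairpin mir-221, −0.56 to 0.11 for hairpin mir-222, −0.70 to −0.52 for miR-221-3p, −0.57 to −0.27 for miR-222-3p, −1.68 to −1.29 for miR-221-5p and −0.72 to −0.44 for the sum. For the ratios it gave −0.28 to −0.10 for miR-221-3p to miR-222-3p, −1.36 to −0.42 for the hairpins, −1.9997 to −1.25 for the miR-221 arms and −0.12 to 0.12 for hairpin mir-221 to miR-221-3p.

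Replicate numbers were shared by 6 pairs. Their correlations of deviations were −0.05 to 0.34 for hairpins and 0.01 to 0.34 for mature miRNAs, above 0.1 in 2 and 3 of 6 pairs. For hairpins 3 of 6 WT libraries, and for mature miRNAs 2 of 6, correlated best with their own number. Among DKO libraries the counts were also 3 and 2. These values do not settle whether the numbers pair the mice. With the replicate block, miR-221-3p stood at −0.51 (edgeR adjusted p = 0.0239), miR-221-5p at −1.33 and the sum at −0.44 (exact sign permutation p = 0.0625 for both, where 0.0312 is the smallest possible).

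The scaling set the whole balance of calls: 95 hairpins were lower and 114 higher with TMM, 56 and 153 with library size only and 137 and 93 with upper quartile, and for mature miRNAs 110 and 113, 77 and 142, and 132 and 89. Requiring at least 10 counts in every library left out hairpin mir-222 and miR-221-5p, so no value is given there, nor for miR-221-5p in limma, which used the main filter, and miR-222-5p was too sparse for any.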
